A study of Homo sapiens with 12 samples.

Results

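The genes described here are those of the proteins of the cytosolic ribosome, taken as every row of the deposited gene table whose symbol has the form of a cytosolic ribosomal protein name (RPL or RPS with a number, RPLP0 to RPLP2, and RPSA). The rule found 84 of 61806 rows: 77 canonical genes, 46 for the large and 31 for the small subunit, and 7 paralogs whose symbols carry an added L (RPL3L, RPL7L1, RPL10L, RPL22L1, RPL26L1, RPL39L and RPS27L). FAU, RACK1, RPL36AL and RPS4Y1 are among the genes that belong to or resemble the family and that fall outside the symbol rule. The members lie on 21 chromosomes, and 12 of them lie on chromosome 19. RNA-seq libraries came from K1 and TPC-1, 2 human lines of papillary thyroid carcinoma, each taken 24 h after transfection with an siRNA against TRIM35, a tripartite-motif E3 ubiquitin ligase, or with a negative control siRNA. There were 3 libraries in each of 4 groups: K1 with TRIM35 siRNA, K1 with control siRNA, TPC-1 with TRIM35 siRNA and TPC-1 with control siRNA. Each line is a single established line, so a difference between K1 and TPC-1 is a difference between 2 cultures with their own histories and not between classes of tumour. The labels do not say that the libraries of a group came from separate cultures, and a p-value here measures only how far these libraries differ from each other, which may be technical variation.

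A ribosome holds 1 copy of most of these proteins, most of them bound to ribosomal RNA, and their mRNAs are among the most abundant of a growing cell. Most of the mRNAs begin with a 5′ terminal oligopyrimidine (TOP) tract, a run of C and U at the cap, through which mTORC1 signalling and LARP1 set their translation together. The canonical genes are expressed in all tissues, whereas several paralogs are restricted, among them RPL3L to striated muscle and RPL10L and RPL39L mainly to testis.

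Runs of this kind can be looked for at the annotated start sites of the members. RefSeq promoters on GRCh38.p14 were at hand for 67 of the 84 members. A run of at least 6 C or T bases, read on the sense strand only and overlapping the 5 bases on either side of the annotated start, was present in 52 of the 67 (77.6%) and in 22.2% of all 35116 promoters of the same length. Such a run, called a tract below, need not begin at the cap. Those of RPL17 and RPL34 ended before the annotated start, and those of RPL10A, RPL32, RPS26 and RPS28 began downstream of it. The median run at the start was 11 bases in the members and 4 in all promoters. The motif TATAAA, read on the sense strand between 40 and 15 bases before the start, was found in 4 members (5.97%) and in 2.3% of all promoters. The windows below run from 20 bases before the start to 20 bases from it on, with the tract in capitals. The first pair are RPL35, one of the canonical members that was lowest in K1 relative to TPC-1, and RPS28, a canonical member that was higher in K1. The other 3 pairs are paralogs, each under its parent gene. All are on GRCh38, as annotated by RefSeq.
RPL35 (chr9:124861938-124861977, minus strand): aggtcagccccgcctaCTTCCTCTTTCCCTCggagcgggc
RPS28 (chr19:8321476-8321515, plus strand): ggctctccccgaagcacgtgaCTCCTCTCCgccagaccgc
RPL22 (chr1:6199576-6199615, minus strand): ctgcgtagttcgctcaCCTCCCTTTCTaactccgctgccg
RPL22L1 (chr3:170870176-170870215, minus strand): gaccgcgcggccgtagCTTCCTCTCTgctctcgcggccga
RPL26 (chr17:8383174-8383213, minus strand): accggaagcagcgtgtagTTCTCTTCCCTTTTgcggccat
RPL26L1 (chr5:172958860-172958899, plus strand): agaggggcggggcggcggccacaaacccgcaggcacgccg
RPS27 (chr1:153990742-153990781, plus strand): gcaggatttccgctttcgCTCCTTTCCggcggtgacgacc
RPS27L (chr15:63157458-63157497, minus strand): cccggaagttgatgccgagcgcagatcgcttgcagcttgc
RPL22L1 keeps a tract of the kind its parent has, and RPL26L1 and RPS27L have no run of 6 in the window. No match says only that these letters are not at this annotated start.

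The members took between 4.55% and 8.95% of the counted reads of a library, a 1.97-fold range over the 12 libraries. In K1 they took 4.55%, 5.25% and 7.08% of counts in the siRNA libraries 1, 2 and 3, and 6.90%, 5.85% and 4.82% in the control libraries. In TPC-1 the shares were 8.33%, 8.95% and 6.65% in the siRNA libraries and 8.29%, 7.83% and 6.59% in the control libraries. The group means were 5.63% ± 1.30 and 5.86% ± 1.04 in K1 and 7.98% ± 1.19 and 7.57% ± 0.880 in TPC-1, with TRIM35 siRNA first in each line (SD, n = 3 each). The 2 lines overlapped: K1 siRNA library 3 and K1 control library 1 lay above the third library of both TPC-1 groups. As a share of summed FPKM the lines did not overlap, at 6.501% to 9.18% over the 6 libraries of K1 and 9.66% to 11.6% over those of TPC-1. With 16705044 to 22928861 counts per library, the counting error of a share (Wilson interval, 95%) was at most 0.0126 percentage points on either side, far below the spread within a group. That interval covers counting error only, since reads without molecular identifiers are not independent molecules.

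**Figure D1:**
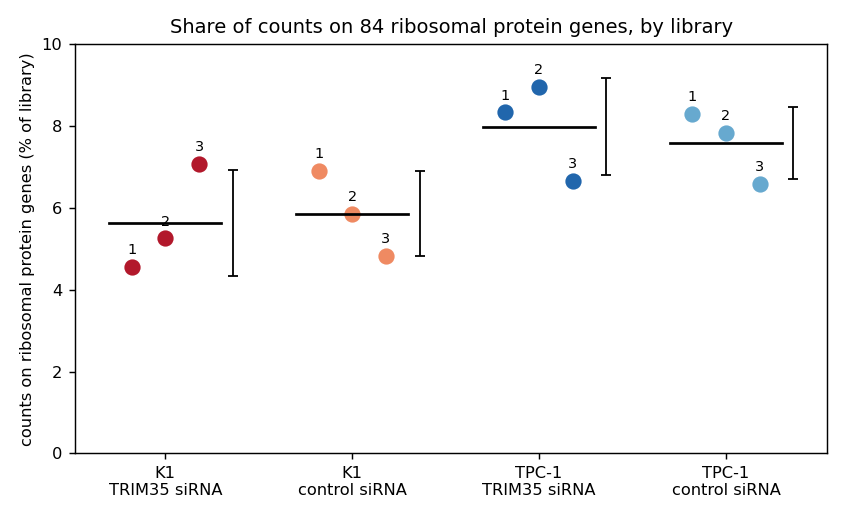
Share of all gene counts taken by the 84 cytosolic ribosomal protein genes (vertical axis, percent) in each of the 12 libraries, numbered by replicate within the 4 groups, with a line at the group mean and an error bar of 1 SD either side of it. The K1 groups average 5.63% and 5.86% and the TPC-1 groups 7.98% and 7.57%, and within each K1 group 1 library stands at 4.55% or 4.82% and another at 7.08% or 6.90%.

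Levels per length were given by the authors as FPKM, fragments scaled by exonic gene size and by library depth. Of the 82 members with enough counts to be tested, the median of the mean FPKM was 168 in K1 and 214 in TPC-1, and 64 members averaged at least 100 FPKM over all libraries. The deposited gene size counts every annotated exon of a gene, and it was a median of 6.11 times the coding length of the members, with a range of 1.61 to 58.6. RPS29 is the extreme, with 9840 exonic bases for a coding sequence of 168 bases, so that its FPKM is set low by its divisor. FPKM values are therefore compared between libraries for 1 gene, and between genes only as the file scales them. On that scale RPL41 stood highest in K1, with a mean of 987 FPKM against 738 for RPL7, and RPL7 stood highest in TPC-1, with 1868 FPKM against 1552 for RPS3A. RPL39L was the lowest tested member in both lines (1.47 FPKM in K1 and 0.023 in TPC-1), followed by RPS29 in K1 (6.28 FPKM) and by RPS28 in TPC-1 (13.1 FPKM). RPL3L, the muscle paralog of RPL3, had 1 to 7 counts per library and at most 0.14 FPKM, and RPL10L, the testis paralog of RPL10, had 0 counts in all 12 libraries, which allows up to 3 counts in each. Neither was tested.

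K1 was compared with TPC-1 in the control siRNA libraries and again in the TRIM35 siRNA libraries, which share no sample. In control libraries 30 of the 82 tested members were lower in K1 and 3 were higher, at an adjusted p under 0.05 in edgeR's quasi-likelihood test. Over all 17447 tested genes, 32.1% were lower and 35.8% higher. The share of members called lower thus lay near the background, whereas few were called higher. The median log2 fold change of the members was -0.35, against 0.06 for all tested genes, and 67 of the 82 lay below 0. In TRIM35 siRNA libraries 39 members were lower in K1 and 2 were higher, with a background of 32.4% lower and 35.9% higher, a median of -0.53 against 0.06 for all genes, and 76 values below 0. The same 30 members were lower in both comparisons and the same 2, RPL39L and RPS28, were higher in both. The counts moved with single libraries: in control libraries 17 were lower without K1 control library 3, and the number higher was 1 when K1 control library 1 was left out and 5 when TPC-1 control library 1 was. In siRNA libraries 64 were lower without K1 siRNA library 3 and 25 without TPC-1 siRNA library 2, and 1 was higher without K1 or TPC-1 siRNA library 3. Across the 82 members the fold changes of the 2 comparisons had a Pearson r of 0.98, against 0.97 across all tested genes; genes are not independent replicates. These are bulk libraries, in which fewer cells of a kind and less RNA per cell cannot be told apart.

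The counts by subunit are read against the 32.1% of all tested genes lower in control libraries and the 32.4% lower in siRNA libraries. Of the 46 canonical large subunit genes, 14 were lower and 1 was higher in K1 control libraries, with a median log2 fold change of -0.30, and 20 were lower and 0 higher in siRNA libraries, with a median of -0.51. Of the 31 canonical small subunit genes, 13 were lower and 1 higher in control libraries, with a median of -0.42, and 16 and 1 in siRNA libraries, with a median of -0.58. In control libraries the share of large subunit genes called lower was thus at the background. Among the 5 tested paralogs 3 were lower and 1 higher in each comparison. By start site, members with a tract had a median of -0.33 in control libraries (16 of 52 lower, 2 higher) and those without one had a median of -0.35 (6 of 14 lower, 0 higher). The share called lower among members with a tract was again near the background. In siRNA libraries the medians were -0.50 with a tract and -0.57 without.

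**Figure D2:**
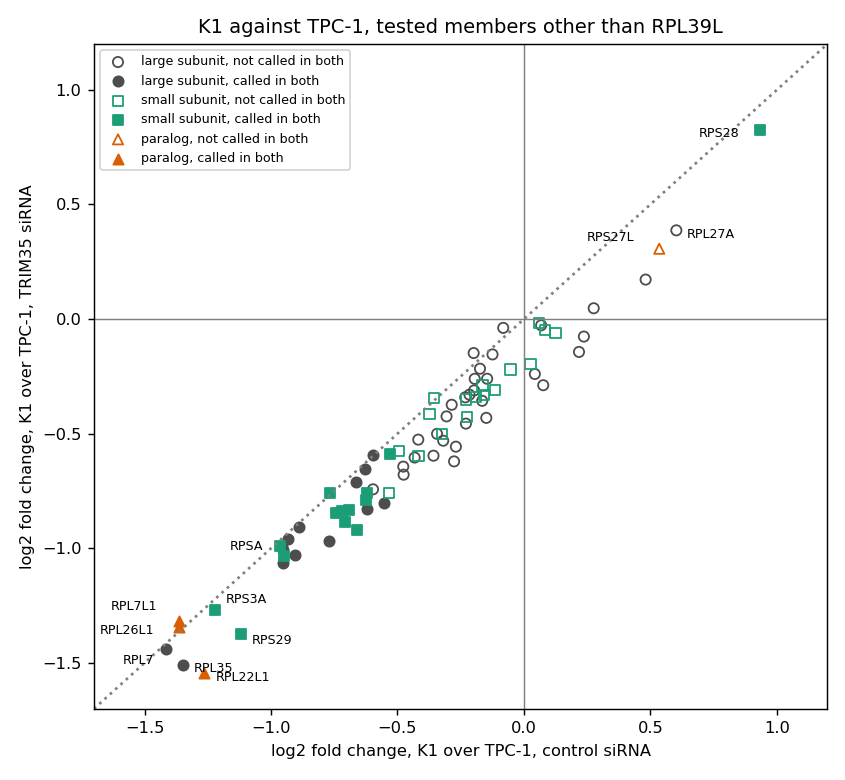
Log2 fold change of K1 over TPC-1 in TRIM35 siRNA libraries (vertical axis) and in control siRNA libraries (horizontal axis), 1 point per tested member, with large subunit, small subunit and paralog genes marked apart, filled where called in both comparisons, and a dotted line of equal values. RPL39L lies outside the axes, at 6.08 and 4.96. Most points lie below 0 on both axes, with RPL7, RPL35, RPL22L1, RPL26L1 and RPL7L1 at the low end and RPS28 at the high end.

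Among large subunit genes, RPL7 (chromosome 8), had the lowest fold change of all members in control libraries. It had 582, 698 and 915 FPKM in K1 siRNA libraries and 848, 718 and 667 FPKM in K1 control libraries, against 1665, 2241 and 1718 FPKM in TPC-1 siRNA libraries and 1947, 1968 and 1671 FPKM in TPC-1 control libraries. Every K1 library lay below every TPC-1 library. The log2 fold change was -1.41 ± 0.22 (SE) in control libraries (edgeR, adjusted p = 2.88e-05) and -1.44 ± 0.22 in siRNA libraries (adjusted p = 2.41e-05). RPL35 (ENSG00000136942, chr9:124857880-124861981), which sits at the exit of the peptide tunnel, had 110.2, 129.5 and 194 FPKM in K1 siRNA libraries and 193, 147 and 109.6 FPKM in K1 control libraries. TPC-1 had 463, 430.4 and 281 FPKM in siRNA libraries and 448, 356 and 278 FPKM in control libraries. The lines did not overlap, and the log2 fold changes were -1.35 ± 0.28 in control libraries and -1.51 ± 0.28 in siRNA libraries (edgeR, adjusted p = 4.71e-04 and 1.80e-04). RPL10, which completes the large subunit late in its maturation, was lower by a log2 fold change of -0.93 in control and -0.96 in siRNA libraries.

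Among small subunit genes, RPS3A (ENSG00000145425, chr4:151099624-151104642) had 531, 619 and 879 FPKM in K1 siRNA libraries and 837, 707 and 584 FPKM in K1 control libraries. TPC-1 had 1467, 1807 and 1362 FPKM in siRNA libraries and 1689, 1611 and 1373 FPKM in control libraries. The lowest TPC-1 library was above the highest K1 library, and the log2 fold changes were -1.22 ± 0.23 and -1.27 ± 0.23 (edgeR, control and siRNA libraries, adjusted p = 1.94e-04 and 1.38e-04). RPSA (ENSG00000168028, chr3:39406716-39426255), the ribosomal protein also known as the laminin receptor, had 126, 137 and 185 FPKM in K1 siRNA libraries and 183, 154 and 133 FPKM in K1 control libraries. TPC-1 had 253, 320.3 and 268 FPKM in siRNA libraries and 286, 308 and 268 FPKM in control libraries, again without overlap. Its log2 fold change was -0.96 ± 0.20 in control and -0.99 ± 0.20 in siRNA libraries (edgeR, adjusted p = 5.23e-04 and 4.15e-04). RPS29 (ENSG00000213741, chr14:49570984-49599164), a zinc-binding protein of the small subunit head, was less even within a group. It had 2.92, 6.08 and 9.61 FPKM in K1 siRNA libraries and 8.46, 6.28 and 4.33 FPKM in K1 control libraries, against 15.7, 19.8 and 10.5 FPKM in TPC-1 siRNA libraries and 16.5, 12.4 and 10.3 FPKM in TPC-1 control libraries. The log2 fold changes were -1.12 ± 0.37 in control libraries and -1.37 ± 0.37 in siRNA libraries (edgeR, adjusted p = 0.0140 and 0.00401).

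The canonical genes higher in K1 were few. RPS28 (ENSG00000233927, chr19:8321158-8323340), a small subunit protein at the mRNA exit, had 18.5, 24.6 and 34.4 FPKM in K1 siRNA libraries and 33.5, 23.6 and 17.1 FPKM in K1 control libraries. In TPC-1 it had 16.9, 16.1 and 8.69 FPKM in siRNA libraries and 15.1, 11.4 and 10.3 FPKM in control libraries, all below the lowest K1 library. The log2 fold change was 0.93 ± 0.30 in control and 0.82 ± 0.30 in siRNA libraries (edgeR, adjusted p = 0.0124 and 0.0232). RPL27A (ENSG00000166441, chr11:8682788-8714759), a large subunit protein, had 133.5, 148 and 189 FPKM in K1 siRNA libraries and 191, 165 and 129 FPKM in K1 control libraries. TPC-1 had 139, 119 and 82.9 FPKM in siRNA libraries and 119, 99.0 and 83.3 FPKM in control libraries, so that in siRNA libraries the highest TPC-1 value lay above the lowest K1 value. It was called in control libraries (0.60 ± 0.22, edgeR, adjusted p = 0.0254) and not in siRNA libraries (0.39 ± 0.22, adjusted p = 0.134). Its call was lost without any 1 of K1 control libraries 1 (log2 fold change 0.44) and 2 (0.60) and TPC-1 control libraries 2 (0.60) and 3 (0.49). The RPS28 calls were lost without K1 control library 1 (0.62) in control libraries, and without K1 siRNA library 3 (0.50) or TPC-1 siRNA library 3 (0.56) in siRNA libraries.

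Other members with named roles did not pass the test in either comparison. The stalk proteins RPLP0, RPLP1 and RPLP2, which recruit the translation factors that hydrolyse GTP, had log2 fold changes of -0.17, 0.22 and 0.24 in control libraries and -0.22, -0.14 and -0.08 in siRNA libraries. RPLP0 had 387, 419.7 and 506 FPKM in K1 siRNA libraries and 521, 439 and 394 FPKM in K1 control libraries, against 463, 525 and 449 FPKM in TPC-1 siRNA libraries and 462, 522 and 450.4 FPKM in TPC-1 control libraries. RPLP1 had 108, 143 and 228 FPKM in K1 siRNA libraries and 221, 175 and 127 FPKM in K1 control libraries, against 228, 169 and 109 FPKM in TPC-1 siRNA libraries and 191, 128 and 106 FPKM in TPC-1 control libraries. For both genes the lines overlapped over most of their range. RPL5 and RPL11, which carry the 5S rRNA and bind MDM2 when ribosome assembly is disturbed, had log2 fold changes of -0.23 and -0.23 in control libraries and -0.46 and -0.34 in siRNA libraries. RPS6, the substrate of the S6 kinases, had 0.03 in control and -0.20 in siRNA libraries. With standard errors of 0.18 to 0.32 on these log2 values, changes of their size were not detectable at this replication.

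Measured by FPKM, all 6 K1 libraries lay below all 6 TPC-1 libraries in 23 tested members and above them in 2 (RPL39L and RPS28), and 57 overlapped. Over all tested genes 26.3% lay wholly below and 32.8% wholly above. Each member can also be set against the summed counts of the 84 members of its own library, which removes the level that the members share. On that scale 22 members lay wholly below in K1, 22 lay wholly above, and 38 overlapped (all tested genes on the same divisor: 13.4% and 38.9%). RPL7 made up 3.31% to 3.73% of the members' counts in K1 and 5.40% to 6.97% in TPC-1, a ratio of medians of 0.513. RPL35, RPL22L1, RPL26L1, RPS3A and RPL7L1 had ratios of 0.533 to 0.593. RPL27A made up 1.82% to 2.00% in K1 and 0.849% to 1.14% in TPC-1, a ratio of 2.16. RPS28 had a ratio of 2.61, RPS27L 2.00, RPL19 1.92 and RPL28 1.74, each with the lines wholly apart. RPS6, RPLP0, RPL4, RPL11 and RPL3, which were not called on the scale of the whole library, lay wholly above on this one, with ratios of 1.20 to 1.38. These are shares of counted reads, which also carry gene length, and they sum to 100% in each library by construction.

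Relative to their parents, all tested paralogs but RPL7L1 differed between the lines. The ratio was taken as log2(FPKM + 0.1) of the paralog minus that of the parent, and the lines were compared by a two-sided exact permutation test of libraries within each siRNA treatment, in which 400 assignments allow no p under 0.005. It was run for the 5 tested pairs, and the pseudocount understates differences of low genes. By FPKM alone, 26.3% of all tested genes lay wholly below and 32.8% wholly above in K1. No such share was taken for ratios of other gene pairs, so lines wholly apart may be common for a ratio. RPL22L1 (ENSG00000163584, chr3:170864875-170870208), whose parent Rpl22 represses it in mice, had 34.3, 41.7 and 72.4 FPKM in K1 siRNA libraries and 68.6, 56.3 and 38.5 FPKM in K1 control libraries. In TPC-1 it had 171, 153 and 90.2 FPKM in siRNA libraries and 169, 115 and 86.8 FPKM in control libraries. That was 43.3% to 58.7% of RPL22 in K1 and 83.6% to 114% of RPL22 in TPC-1, without overlap (difference of log2 ratios, K1 minus TPC-1, -0.94, exact permutation p = 0.005, adjusted over 5 pairs 0.00625). RPL22L1 itself had a log2 fold change of -1.26 ± 0.33 in control and -1.55 ± 0.33 in siRNA libraries (edgeR, adjusted p = 0.00301 and 6.68e-04). RPL22 was called lower in siRNA libraries only (-0.60, against -0.36 in control libraries), and the difference between the 2 comparisons was not called for any member.

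RPL26L1 (ENSG00000037241, chr5:172958729-172969771) had 25.2, 25.9 and 36.8 FPKM in K1 siRNA libraries and 33.7, 29.5 and 25.5 FPKM in K1 control libraries. In TPC-1 it had 77.5, 82.3 and 51.4 FPKM in siRNA libraries and 87.4, 67.4 and 59.9 FPKM in control libraries. Relative to RPL26 that was 17.2% to 18.1% in K1, a narrow band over 6 libraries whose absolute levels varied, and 23.0% to 30.0% in TPC-1 (difference of log2 ratios -0.65, exact permutation p = 0.005, adjusted 0.00625). The gene itself had log2 fold changes of -1.36 ± 0.22 and -1.34 ± 0.22 (edgeR, control and siRNA libraries, adjusted p = 5.33e-05 and 6.19e-05), and RPL26 had -0.66 and -0.71. RPL7L1 had 11.0, 11.5 and 13.2 FPKM in K1 siRNA libraries and 13.4, 12.5 and 12.2 FPKM in K1 control libraries, against 24.7, 28.0 and 31.0 FPKM in TPC-1 siRNA libraries and 26.6, 31.9 and 33.4 FPKM in TPC-1 control libraries. Its log2 fold changes were -1.36 ± 0.15 and -1.32 ± 0.15 (edgeR, adjusted p = 9.17e-07 and 1.36e-06), close to those of RPL7. It stood at 1.44% to 1.897% of RPL7 in K1 and 1.25% to 2.00% in TPC-1, and that ratio was not shown to differ (0.11, exact permutation p = 0.38).

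RPL39L (ENSG00000163923, chr3:187120948-187180908) and RPS27L (chr15:63125872-63158021) went the other way. RPL39L had 1.79, 1.01 and 1.88 FPKM in K1 siRNA libraries and 1.14, 1.59 and 1.39 FPKM in K1 control libraries, against 0, 0 and 0.04 FPKM in TPC-1 siRNA libraries and 0.05, 0.05 and 0 FPKM in TPC-1 control libraries. Summed over 3 libraries these are 89 counts in K1 and 1 in TPC-1 with TRIM35 siRNA, a ratio per count sequenced of 97.2 (95% counting interval 17.0 to 3880). With control siRNA they are 88 counts in K1 and 2 in TPC-1, a ratio of 38.7 (10.4 to 325). The edgeR test called RPL39L higher in both (log2 fold changes 6.08 and 4.96 for siRNA and control libraries, adjusted p = 2.03e-06 and 8.08e-06), but with so few counts in TPC-1 the fitted size depends on the prior count. RPL39L stayed below 1% of RPL39 in every library, at most 0.996% in K1 and 0.0178% in TPC-1 (difference of log2 ratios 3.95, or 1.54 with a pseudocount of 1, exact permutation p = 0.005, adjusted 0.00625). RPS27L, a p53 target, had 23.3, 29.4 and 39.2 FPKM in K1 siRNA libraries and 38.2, 33.6 and 28.2 FPKM in K1 control libraries, against 26.9, 26.7 and 16.8 FPKM in TPC-1 siRNA libraries and 27.7, 20.2 and 17.0 FPKM in TPC-1 control libraries. Neither line comparison called it (0.54 in control libraries, edgeR adjusted p = 0.0604, and 0.31 in siRNA libraries). As a share of RPS27 it was 9.03% to 11.9% in K1 and 5.83% to 6.70% in TPC-1, without overlap (difference 0.67, exact permutation p = 0.005, adjusted 0.00625).

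**Figure D3:**
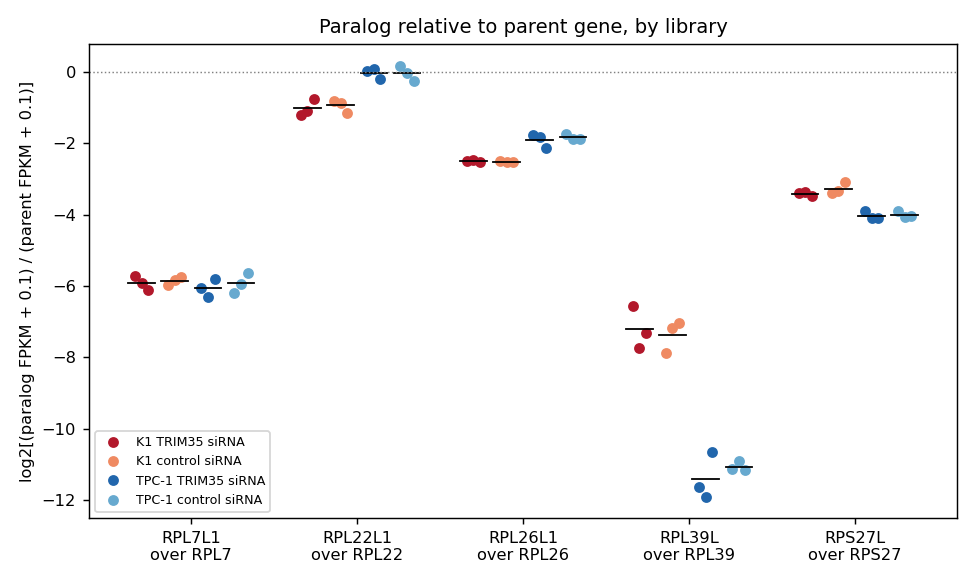
Log2 ratio of paralog to parent, each as FPKM + 0.1 (vertical axis), for the 5 tested pairs, with 1 point per library, a bar for the mean of each group of 3, and the 4 groups in separate colours. The K1 libraries lie below the TPC-1 libraries for RPL22L1 and RPL26L1 (differences of -0.94 and -0.65), above them for RPL39L and RPS27L (3.95 and 0.67), and among them for RPL7L1.

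Within a group the members' median spread from library to library was above that of all tested genes. TPC-1 control libraries were an exception with an offset fitted to exonic gene size. The median within-group SD of log2 CPM (counts scaled to library size with TMM factors) was 0.44 for the 82 members and 0.24 for all 17447 tested genes in K1 siRNA libraries, and 0.33 and 0.20 in K1 control libraries. It was 0.34 and 0.25 in TPC-1 siRNA libraries, and 0.24 and 0.21 in TPC-1 control libraries. An offset per library was then fitted to the deposited exonic gene size, a median of 6.11 times the coding length in the members. With it the members' median was 0.18 in TPC-1 control libraries, below the 0.19 of all genes. In the other 3 groups it stayed above. The 266 other genes of at least 100 FPKM had lower medians than the members, of 0.28, 0.20, 0.23 and 0.17 in the same 4 groups. Mitochondrial ribosomal genes and ribosome biogenesis factors also had lower medians in each group. The 42 nuclear respiratory chain genes had higher ones, of 0.471, 0.373, 0.343 and 0.250, against 0.438, 0.335, 0.342 and 0.241 for the members. The 13 mitochondrially encoded genes were below the members in K1 (0.21 and 0.20) and above them in TPC-1 (0.58 and 0.36). The SD exceeded the all-gene median in 79, 79, 59 and 48 of the 82 members. The most variable members were RPS29 in K1 siRNA libraries (SD 0.943), RPS28 in K1 control and TPC-1 siRNA libraries (0.544 and 0.533) and RPL22L1 in TPC-1 control libraries (0.466). The least variable were RPL17 (0.105), RPL7L1 (0.129), RPS15 (0.117) and RPL35A (0.0842) in the same order of groups. RPL17, for example, had 43.9, 42.9 and 44.1 FPKM in K1 siRNA libraries and 46.3, 41.4 and 42.5 FPKM in K1 control libraries.

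The members moved together between libraries. In K1 siRNA libraries their median deviation from the group mean was -0.36, -0.11 and 0.48 on the log2 scale for libraries 1, 2 and 3, and all 82 members were above the group mean in library 3. In K1 control libraries it was 0.33, 0.01 and -0.33, with 81 members above the mean in library 1 and 0 in library 3. In TPC-1 it was 0.07, 0.24 and -0.35 in siRNA libraries and 0.22, 0.03 and -0.23 in control libraries, with 7 and 6 members above the mean in library 3. A single order of the libraries held for most members: library 3 over 2 over 1 in 78 members in K1 siRNA libraries (29.6% of all tested genes) and 1 over 2 over 3 in 81 in K1 control libraries (31.6%). In TPC-1 siRNA libraries the leading order was 2 over 1 over 3, in 44 members (14.2% of all genes), and in TPC-1 control libraries 1 over 2 over 3, in 54 (22.9%). The replicate numbers have no order of their own, and nothing in the labels ties library 3 of one group to library 3 of another.

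**Figure D4:**
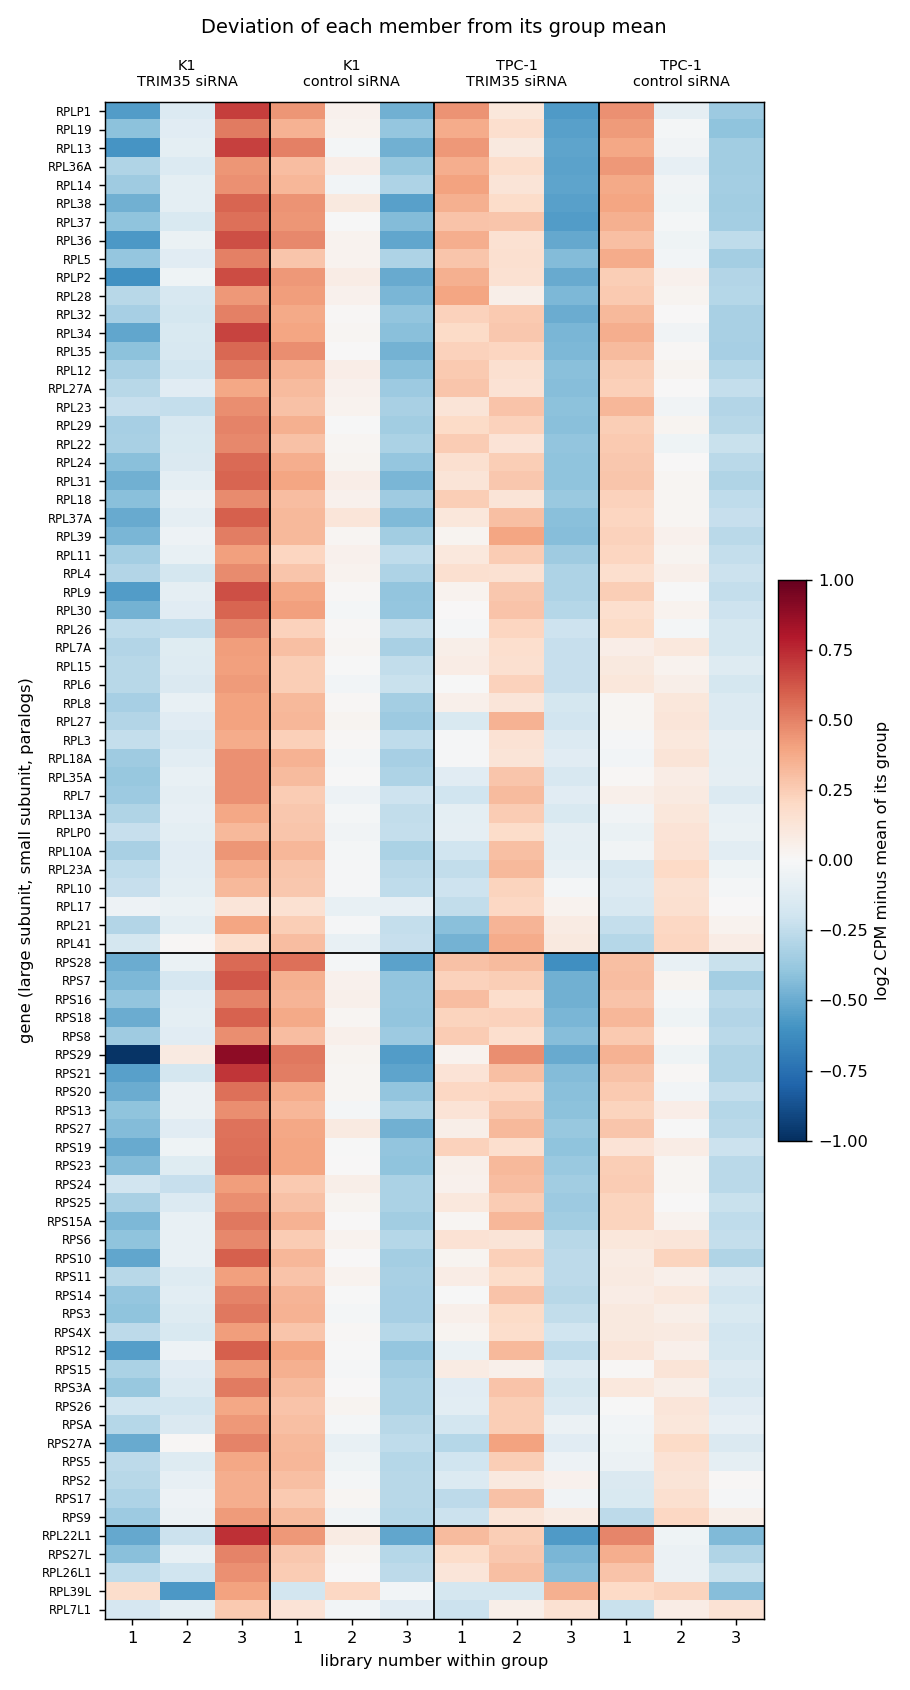
Deviation of each tested member (rows) from its group mean in log2 CPM, for the 12 libraries (columns, 4 groups of 3), on a colour scale from -1 to 1 with values beyond drawn at the end colour. Nearly every row has the same sign in K1 siRNA libraries 1 and 3 and in K1 control libraries 1 and 3, with medians of -0.36, 0.48, 0.33 and -0.33, while TPC-1 rows are more mixed.

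How far each member moved was itself repeatable in TPC-1. The log2 difference of library 1 minus library 3, averaged over both TPC-1 groups, had a median of 0.46 over the members, with 69 above 0 and 13 below. RPLP1 (0.92) and RPL22L1 (0.91) stood at the high end, RPLP0 at 0.00, and RPL41 (-0.46), RPL21 (-0.39), RPL7L1 (-0.36) and RPS9 (-0.31) at the low end. RPL41, the shortest ribosomal protein, thus had 1044, 1758 and 1503 FPKM in TPC-1 siRNA libraries and 1192, 1657 and 1493 FPKM in TPC-1 control libraries, with library 1 the lowest of its group both times. The same difference taken in siRNA and in control libraries had a Pearson r of 0.88 across the 82 members, against 0.53 across 13325 tested protein-coding genes with a coding length. In K1 the difference in siRNA libraries ran against that in control libraries, with an r of -0.81 across members and -0.62 across coding genes. Taken as control library 1 minus 3 and siRNA library 3 minus 1, a direction chosen from the libraries themselves, the K1 difference had a median of 0.74 and was above 0 in all 82 members. Across members it had an r of 0.65 with the TPC-1 difference, against 0.20 across coding genes. These are correlations across genes that share the same libraries, and they have no p. The coding genes were not matched to the members for expression level. At least 100 FPKM on average was reached by 64 of the 82 members and by 266 other tested genes. The part of expression level in these gaps was not tested.

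**Figure D5:**
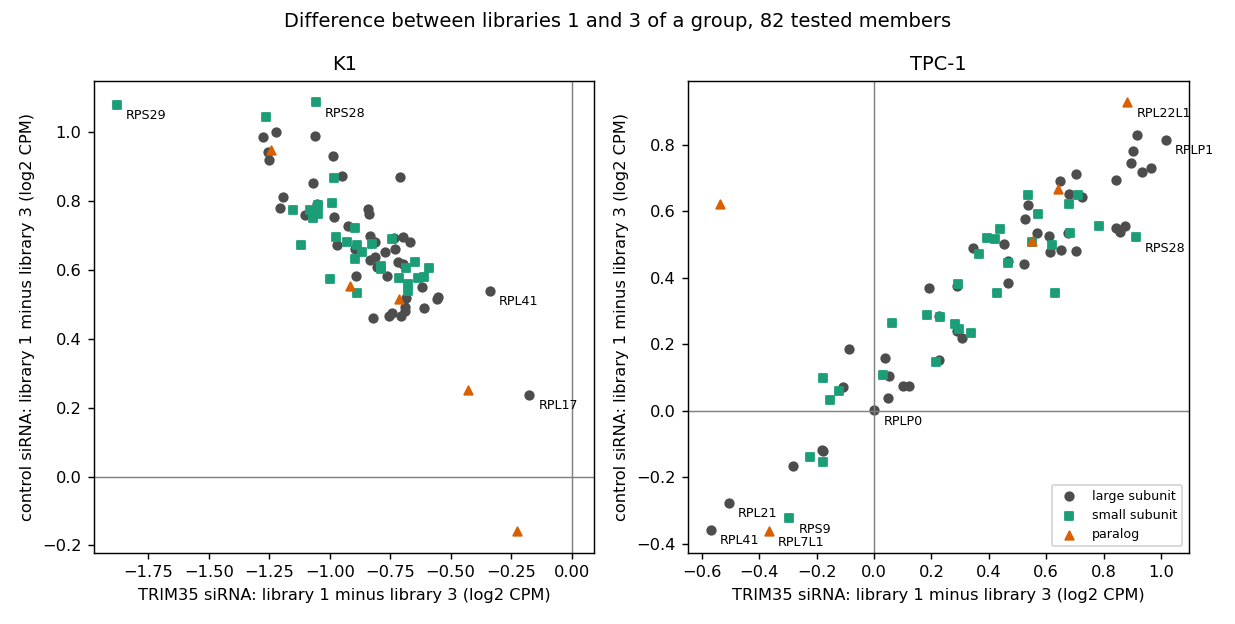
Log2 CPM of library 1 minus library 3 for each of the 82 tested members, in control siRNA libraries (vertical axis) and TRIM35 siRNA libraries (horizontal axis), in K1 on the left and TPC-1 on the right. In K1 all members but RPL39L, the lowest triangle, are positive with control siRNA and negative with TRIM35 siRNA (r = -0.81), and in TPC-1 the members run along a rising diagonal (r = 0.88), from RPL41 and RPL21 to RPLP1 and RPL22L1, with RPL39L off it at the left.

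Other sets of genes moved with the members, among them sets not chosen by length, though not every set did so in both lines. In K1 siRNA libraries the median deviations were -0.27, -0.11 and 0.37 for 77 mitochondrial ribosomal genes. They were -0.19, -0.10 and 0.34 for 29 other genes with TOP mRNAs, and -0.15, -0.08 and 0.18 for 42 ribosome biogenesis factors. In TPC-1 siRNA library 1 the TOP genes and biogenesis factors had -0.06 and -0.08, against 0.07 for the members. The median deviations of 42 nuclear genes of the mitochondrial respiratory chain were -0.38, -0.10 and 0.52 in K1 siRNA libraries, 0.36, 0.00 and -0.38 in K1 control libraries, 0.17, 0.22 and -0.37 in TPC-1 siRNA libraries and 0.19, 0.01 and -0.23 in TPC-1 control libraries. In each library they had the sign of the ribosomal genes' median. The 1567 other genes with a coding sequence under 600 bases had smaller deviations of the same kind in K1 (-0.19, -0.09 and 0.29 in siRNA libraries, 0.19, 0.01 and -0.19 in control libraries). In TPC-1 they had 0.07, 0.11 and -0.16 in siRNA libraries and 0.09, 0.02 and -0.12 in control libraries. In the 4110 genes with a coding sequence of 2000 bases or more the K1 siRNA values were 0.07, 0.03 and -0.09, with the opposite order. The TPC-1 values of these long genes were -0.03, -0.09 and 0.12 in siRNA libraries and -0.07, -0.03 and 0.11 in control libraries. The 13 mitochondrially encoded genes had 0.07, 0.05 and -0.09 in K1 siRNA libraries, where library 3 was the highest for the members, and -0.04, 0.19 and -0.21 in K1 control libraries, where library 3 was the lowest as it was for the members. In TPC-1 siRNA libraries their deviations of 0.55, 0.04 and -0.60 were larger than those of the members in libraries 1 and 3. The median coding length of the tested members was 453 bases, against 1416 for all tested genes with one. Within the members, the log2 coding length had a Spearman rho of -0.37 with the TPC-1 difference and -0.45 with the K1 difference, against -0.29 and -0.49 across 13325 coding genes. As Pearson r within the members, coding length had -0.20 and -0.27 and the GC content of the coding sequence -0.02 and 0.14. The part of transcript length, RNA quality or library preparation in these deviations was not tested.

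TRIM35 siRNA was compared with control siRNA within each line. TRIM35 itself had 1.2, 1.49 and 1.53 FPKM in K1 siRNA libraries, against 1.51, 1.85 and 1.47 FPKM in K1 control libraries, and 2.34, 2.56 and 2.58 FPKM in TPC-1 siRNA libraries, against 2.86, 2.91 and 3.06 FPKM in TPC-1 control libraries. The K1 groups overlapped and the TPC-1 groups did not. The log2 fold changes were -0.19 ± 0.17 in K1 and -0.24 ± 0.16 in TPC-1 (edgeR, adjusted p = 1 in both), so a knockdown of the mRNA was not called in either line.

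No member was called in K1, in TPC-1 or in the difference between the lines, nor was any other of the 17447 genes (0.0% in each) in edgeR's test. At an unadjusted p under 0.05, 0 members passed in any of the 3 comparisons, against 136, 337 and 301 of all genes, and DESeq2 also called 0 members. In K1 the median log2 fold change of the members was -0.04, with 70 of 82 below 0, against 0.00 for all genes. The smallest p on the lower side were those of RPS2, RPL8 and RPS10. RPS2, a small subunit protein near the mRNA entry, had 420.1, 474 and 581 FPKM with TRIM35 siRNA, against 636, 532 and 461 FPKM with control siRNA (log2 fold change -0.13, 95% interval -0.55 to 0.29). RPL39L, RPS28 and RPS27 had the smallest p on the higher side, at 0.19, 0.07 and 0.03. The K1 median turned on single libraries: it was -0.31 with all 82 members below 0 without siRNA library 3, and 0.13 with 81 above 0 without control library 1. It was also above 0 without siRNA library 1 (0.12) or 2 (0.03), and -0.20 without control library 3. Without both K1 libraries 3, it was -0.49, with 82 of 82 members below 0, and 0 were called. For the members, library 3 was the highest of the K1 siRNA group and the lowest of the K1 control group. Leaving out both therefore lowers the median by construction, and nothing is read from it about the siRNA.

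In TPC-1 the median was 0.11, with 68 of 82 above 0. RPL38, a small protein of the large subunit, had the smallest p on the higher side, with 79.1, 66.0 and 41.3 FPKM with TRIM35 siRNA, against 66.2, 47.8 and 38.5 FPKM with control siRNA (log2 fold change 0.29, 95% interval -0.39 to 0.97). RPL14 and RPL27A followed at 0.22 and 0.18, and RPL7L1 (-0.13), RPL39L (-0.93, with 1 count against 2) and RPS10 (-0.06) had the smallest p on the lower side. The groups overlapped for RPL38 as they did for RPL7L1. Leaving out siRNA library 1, 2 or 3 gave a median of 0.07, -0.02 or 0.27, and leaving out control library 1 or 3 gave 0.24 or 0.01. The difference of the siRNA effects, K1 minus TPC-1, had a median of -0.13 over the members, with 74 below 0. That median was 0.03 without library 1 of either K1 group and -0.43 without K1 siRNA library 3. The smallest p were those of RPL38 (-0.36), RPL18 (-0.28) and RPL7A (-0.25) below 0 and of RPL39L (1.12), RPL7L1 (0.05) and RPL17 (0.04) above it (edgeR, adjusted p = 0.9999 for each). The median standard error of a member was 0.23 in each line. A log2 change smaller than about 2 such errors was not detectable for a single gene at an unadjusted p under 0.05. A call after adjustment over all tested genes needed a larger change.

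Genes that make and serve the ribosome were read from lists in the line comparison, to be set against 32.1% of all tested genes lower and 35.8% higher in K1 control libraries. Of 42 tested ribosome biogenesis factors 33 were lower and 2 higher in K1 control libraries, with a median log2 fold change of -0.97, further from 0 than that of the members. BOP1, which processes the large subunit rRNA, was at -2.15 and the pseudouridine synthase DKC1 at -1.96 (edgeR, adjusted p = 1.11e-09 and 4.30e-09). Of 15 genes of the RNA polymerase I machinery 10 were lower and 2 higher, with a median of -0.80, among them the subunit POLR1B (-1.57, adjusted p = 5.24e-08) and the promoter factor TAF1B (-1.66, adjusted p = 1.23e-07). Of 29 translation factors and other genes with TOP mRNAs outside the ribosome 12 were lower and 3 higher, with a median of -0.33, close to that of the members. The poly(A)-binding protein PABPC1 had a log2 fold change of -1.72, the initiation factor subunit EIF3E one of -1.31 and the helicase EIF4A2 one of 0.75 (edgeR, adjusted p = 5.79e-08, 1.32e-05 and 4.18e-05). Among 18 regulators of TOP mRNAs 7 were lower and 1 higher, with EIF4E, the cap-binding factor, at -2.18 and RPTOR, the mTORC1 scaffold, at 1.05. The 12 genes of the 5S RNP and p53 checkpoint split into 4 lower and 4 higher, with HEATR3, which imports RPL5 to the nucleus, at -1.72. Of 13 host genes of small nucleolar RNAs, 2 were lower and 4 higher, with SNHG7 at -1.74 and SNHG5 at 1.82. The counts lower among the regulators and the checkpoint genes were near the background share.

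Of 77 tested genes of the mitochondrial ribosome, a separate particle, 38 were lower and 5 higher in K1 control libraries, with a median of -0.46, and MRPL15 and MRPL13 were at -2.34 and -1.99. Of 42 nuclear respiratory chain genes 14 were lower and 0 higher, with a median of -0.34, and ATP5MC3 stood at -1.23; the count lower was near the background share. The mitochondrially encoded genes had a median of -0.01, with 1 of 13 lower and 2 higher. In TRIM35 siRNA libraries the counts of genes lower in K1 were 33 for biogenesis, 10 for RNA polymerase I, 11 for the translation genes, 40 for the mitochondrial ribosome and 20 for the respiratory chain. None of these lists had a gene called for TRIM35 siRNA against control siRNA in either line.

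Markers of the cell type also differed between the lines. Of 8 thyroid follicular markers, PAX8 averaged 115 FPKM over the 6 libraries of K1 and 19.6 FPKM in TPC-1 and FOXE1 13.2 and 1.64 FPKM, while TG was at most 0.19 FPKM, TSHR and SLC5A5 were at most 0.02 FPKM and NKX2-1 was at 0 in every library. HHEX, another transcription factor of the thyroid, averaged 3.28 FPKM in K1 and 5.28 FPKM in TPC-1. Of the markers named here, PAX8, FOXE1 and HHEX were thus expressed in both lines, and TG, TSHR, SLC5A5 and NKX2-1 were at or near 0. The summed level of the 8 was 111 to 146 FPKM in K1 siRNA libraries and 123 to 137 FPKM in K1 control libraries, against 25.4 to 28.8 FPKM in TPC-1 siRNA libraries and 24.8 to 28.4 FPKM in TPC-1 control libraries. Of 7 tested fibroblast markers 5 were higher and 1 lower in K1 control libraries, and 4 and 1 in siRNA libraries. Over all tested genes 35.8% and 35.9% were higher in these comparisons. The sum over all 9 was 10.5 to 11.6 FPKM in K1, mostly THY1 (mean 7.03 FPKM) and FAP (2.65 FPKM). It was 1.81 to 2.53 FPKM in TPC-1. PDGFRB went the other way, with a mean of 0.41 FPKM in K1 and 1.71 FPKM in TPC-1. Of 4 tested leukocyte markers 3 were higher, with a sum over all 8 of 5.11 to 6.58 FPKM in K1, mostly CD14, and 0.42 to 1.09 FPKM in TPC-1, with CD3E and MS4A1 at 0 in K1. The part of these genes in the difference of the ribosomal genes was not tested.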

How the data were processed

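The deposited table held read counts and FPKM per gene for 12 libraries, with gene symbols, hg38 coordinates and an exonic gene size. Per the labels' protocols, RNA was extracted with TRIzol and reverse transcribed with random primers, and the submitters' processing notes name cutadapt 1.9.1 and hg38. The aligner, counter, annotation and strand setting were not given in the sources at hand, so reads of overlapping genes and of ribosomal protein pseudogenes (1367 rows, 0.136% to 0.269% of counts) may have been shared out in ways that cannot be checked. Across the 82 tested members the line fold change in control libraries had a Spearman rho of -0.38 with the number of pseudogene rows. The Pearson r was -0.27. The part of pseudogene reads in the line difference was not tested. The FPKM values were computed by the authors, and they and the deposited counts were used as given. Libraries held 16705044 to 22928861 counts, with 22526 to 28045 genes detected. No 2 libraries of the same group agreed within counting noise. The title of 1 TPC-1 control library names another line, and it was kept in the group that its other labels and its column give.

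Counts were tested with edgeR 4.0.16 (R 4.3.3) after filterByExpr, which kept 17447 of 61806 genes, and TMM scaling. One mean per group was fitted over all 12 libraries, which leaves 8 residual degrees of freedom. The quasi-likelihood F tests add edgeR's prior degrees of freedom to these. Benjamini-Hochberg adjustment ran over all tested genes, with a threshold of 0.05. The standard error of a fold change is its size divided by the square root of F. The 95% intervals of fold changes use a t value on 8 degrees of freedom, so they are wider than the tests imply. Within-group SDs use log2 CPM with a prior count of 2, and paralog ratios log2(FPKM + 0.1). Alternatives used limma 3.58.1 and DESeq2 1.42.0, and descriptions Python 3.11.15 with pandas 2.3.3, numpy 2.4.6 and scipy 1.17.1. Coding lengths come from GENCODE 29 and start sites from RefSeq on GRCh38.p14. Values are given for the 5 called members per direction with the largest fold change in each comparison (where none was called, the 3 per direction with the smallest p), for the paralog pairs, the stalk proteins, RPSA, RPL5, RPL11, RPS6 and the members at the ends of the FPKM range, and for up to 4 genes of each other list. RPL10, RPL19, RPL28, RPL4, RPL21, RPS9, RPS15, RPL35A and others named in counts or ranges were named after their values were seen. The members and lists were chosen with earlier results of these data known.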

Additional observations from a re-analysis of the deposited data

How the results depend on the processing

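The median of the members in K1 against TPC-1 stayed below 0 under the settings tried, but the counts moved. The median of all genes, 0.06, was -0.03 in both comparisons with an offset by the deposited exonic gene size. In control libraries, 30 members lower and 3 higher became 13 and 1 with a replicate block. The block was fitted within each line with library 1 as its reference. Its line comparison is thus that at library 1 and not that of the group means. In control libraries 5 were also higher without a low-count filter, and 5 without both K1 libraries 3. Leaving out 1 library gave 17 to 37 lower and 1 to 5 higher, lowest without K1 control library 3. In TRIM35 siRNA libraries, 39 lower and 2 higher became 19 and 1 with a replicate block and 67 and 1 without both K1 libraries 3, and leaving out 1 library gave 25 to 64 lower (64 without K1 siRNA library 3) and 1 to 2 higher. The cause was not tested. The replicate numbers did not pair the K1 samples, where same-numbered libraries had correlations of -0.49, 0.086 and -0.53. In TPC-1 the correlations were 0.38, 0.086 and 0.41, with every library closest to its own number. The labels do not say whether the TPC-1 libraries were paired.

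For TRIM35 siRNA no member was called under any setting. Without both K1 libraries 3 the K1 median was -0.49 and the difference of the effects -0.59. That setting leaves out the members' highest siRNA and lowest control library of K1, which lowers both values by construction. Single genes turned over with it: RPL39L to -0.053, RPS28 to -0.48 and RPS27 to -0.50 in K1. In the difference, RPL17 turned to -0.061 and RPL7L1 to -0.15. Leaving out 1 library, K1 values ran from -0.32 to 0.023 for RPS2, -0.35 to 0.033 for RPL8, -0.50 to 0.058 for RPS10, -0.018 to 0.45 for RPL39L, -0.24 to 0.38 for RPS28 and -0.28 to 0.23 for RPS27. In TPC-1 RPS10 ran from -0.19 to 0.069, and in the difference RPL17 from -0.082 to 0.15 and RPL7L1 from -0.092 to 0.13.

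As a share of summed FPKM the members held 7.70% and 7.86% in K1 (TRIM35 and control siRNA) and 10.5% and 10.3% in TPC-1. On log2(FPKM + 0.1) the median SD in K1 siRNA libraries was 0.35. Without a low-count filter the median of all genes moved to 0.25 in control and 0.18 in siRNA libraries. A fit on only the groups compared does not apply to the difference of effects, which uses all groups.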
